A study of Homo sapiens with 76 samples.

Results

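Among 76 single HEK293 cells, 38 were chosen by the share of their RNA that came from HIST1H4C, one of the genes that encode core histone H4. For each cell the HIST1H4C count was divided by the cell's summed gene count. The 19 cells of highest share are called HIST1H4C-high, the 19 of lowest share HIST1H4C-low, and the 38 cells between them entered no fold of high over low cells. HEK293 is an established human embryonic kidney line, and all cells carried the same label, with no treatment, genotype or time that differed. Cells grown in DMEM with glutamine and fetal calf serum were caught on a Fluidigm C1 chip and lysed with ERCC spike-in RNA, which serves as an equal amount of foreign RNA per chamber. Polyadenylated RNA was primed with oligo-dT and tagged at the 5' end with a unique molecular identifier (UMI), a random tag that lets copies of 1 cDNA molecule be counted once. No label tells if they were taken from 1 culture or from more.

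Because each cell is 1 library of the same unreplicated sample, each group counted as 1 sample and no p-value is given. Levels are UMIs per 10000 gene UMIs, either of 1 cell or pooled over the cells of a group. A fold is the pooled level in HIST1H4C-high cells over that in HIST1H4C-low cells, with an exact 95% interval that covers counting error only and is not adjusted for the number of genes. Genes with a mean of at least 2 UMIs per cell were compared, and a gene was called higher or lower at 1.5-fold or more in either direction. Rows whose symbol begins with HIST were left out of the comparison of genes.

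Newly made DNA is wrapped around histone proteins, and cells make most histones from clustered genes that are switched on during DNA replication. Their mRNAs end in a stem-loop instead of a poly(A) tail, and the stem-loop binding protein SLBP processes and carries them. Cells enter S phase after the MCM helicase has been loaded on origins, then copy DNA with the clamp PCNA and its partners, and later raise the cyclins and spindle proteins of mitosis. The protocol primed poly(A), and how transcripts with a stem-loop end were primed was not tested.

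The HIST1H4C levels that chose the cells are given as a description. In HIST1H4C-low cells the level was 4.64 at the lowest, 10.6 at the median and 17.5 at the highest cell, from 6 to 49 UMIs (median 22). In HIST1H4C-high cells it was 120, 141 and 214, from 142 to 497 UMIs (median 269). The last low cell had a level of 17.47 and the next cell 17.58, so the lower border fell within a run of like cells. At the upper border the values were 120.03 and 112.87. The 38 cells between were divided in the same order into a lower middle set of 19 cells (17.6 to 59.4) and an upper middle set of 19 cells (68.1 to 112.9). They were used to show whether a difference is graded, and for some gene lists as a level over both ends.

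**Figure D1:**
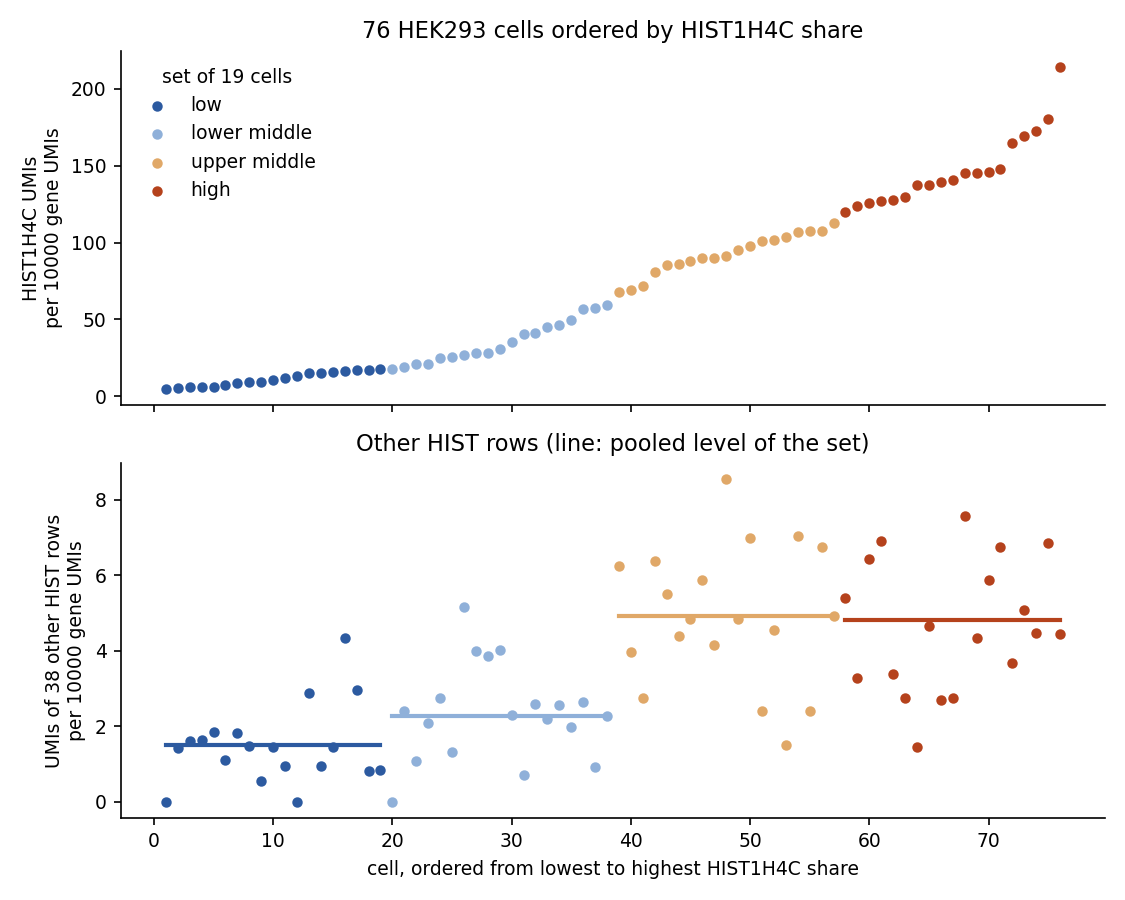
The upper plot gives the HIST1H4C level (UMIs per 10000 gene UMIs) of each of the 76 cells, ordered from lowest to highest and coloured by set. The lower plot gives the summed level of the 38 other HIST rows in the same cells, with a line at each set's pooled level. The low set lies at 1.49 and the high set at 4.81, and the upper middle set, at 4.93, is as high as the high set.

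The sequences below show the 250 bases before the RefSeq start of 4 other histone genes (RefSeq, build GRCh38.p14), because the first 3 were higher in HIST1H4C-high cells and the fourth was not. HIST1H1E (H1-4 in RefSeq) and HIST1H1C (H1-2) encode linker histones H1, HIST2H2AC (H2AC20) a histone H2A and HIST1H2BK (H2BC12) a histone H2B. The windows are chr6:26156079-26156328 on the plus strand, chr6:26056471-26056720 on the minus strand, chr1:149886668-149886917 on the plus strand and chr6:27146859-27147108 on the minus strand. Capitals mark 4 motifs searched on both strands, so that the reverse complement is capitalised too: CCAAT, the TATA box motif TATAAA, the H1 promoter motif AAACACA and the octamer motif ATTTGCAT.
HIST1H1E: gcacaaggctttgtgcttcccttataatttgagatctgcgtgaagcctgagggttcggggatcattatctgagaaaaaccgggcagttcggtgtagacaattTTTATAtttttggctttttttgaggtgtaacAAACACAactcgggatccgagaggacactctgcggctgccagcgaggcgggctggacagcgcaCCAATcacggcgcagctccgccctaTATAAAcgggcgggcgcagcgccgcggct
HIST1H1C: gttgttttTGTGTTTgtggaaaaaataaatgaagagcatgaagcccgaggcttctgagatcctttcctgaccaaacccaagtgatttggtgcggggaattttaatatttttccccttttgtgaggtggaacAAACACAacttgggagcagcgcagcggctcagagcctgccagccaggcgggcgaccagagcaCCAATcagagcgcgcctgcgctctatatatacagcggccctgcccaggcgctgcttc
HIST2H2AC: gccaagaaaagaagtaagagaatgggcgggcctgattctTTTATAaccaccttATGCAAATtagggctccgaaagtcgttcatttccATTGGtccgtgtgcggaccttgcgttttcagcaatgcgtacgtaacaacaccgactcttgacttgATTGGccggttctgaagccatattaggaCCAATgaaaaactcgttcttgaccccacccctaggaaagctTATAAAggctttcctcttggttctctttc
HIST1H2BK: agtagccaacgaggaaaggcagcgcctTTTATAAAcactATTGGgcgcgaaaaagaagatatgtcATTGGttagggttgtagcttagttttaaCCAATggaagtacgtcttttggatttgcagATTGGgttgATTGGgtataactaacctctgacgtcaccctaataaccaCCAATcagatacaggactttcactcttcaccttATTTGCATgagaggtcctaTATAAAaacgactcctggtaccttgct
Both H1 windows hold AAACACA on the gene's strand, 117 bases before the start in HIST1H1E and 119 in HIST1H1C, followed by CCAAT at 54 and 57 bases. HIST2H2AC and HIST1H2BK hold the octamer, on opposite strands, and no AAACACA. In HIST1H2BK 2 TATAAA matches on opposite strands overlap. Of 27305 RefSeq genes with a promoter of this length, CCAAT was in 33.04%, TATAAA in 11.1%, AAACACA in 4.95% and ATTTGCAT in 1.66%. Among the 32 promoters matched to the 39 HIST rows the counts were 26, 22, 4 and 12. A match describes letters in the window, not a bound factor.

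The other histone rows were higher together in HIST1H4C-high cells. The 38 rows summed to 179 UMIs against 66, which is 3.22-fold (2.42 to 4.34). Per cell they gave 2 to 20 UMIs (median 8) in HIST1H4C-high and 0 to 8 (median 3) in HIST1H4C-low cells, so the groups overlapped. In the lower middle set the median was 5 UMIs and in the upper middle set 10.

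By class, linker histones H1 had the highest fold, with 58 UMIs against 7 and 9.84 (4.48 to 25.5). Rows of H2A had 68 against 23 UMIs, or 3.51-fold (2.16 to 5.90), and rows of H3 had 19 against 9, or 2.51-fold (1.08 to 6.29). Rows of H2B had 27 against 25 UMIs, and their fold of 1.28 had an interval that includes 1 (0.716 to 2.30). The 7 rows of H4 other than HIST1H4C had 7 against 2 UMIs, and their fold of 4.16 also had an interval that includes 1 (0.791 to 40.99). The intervals of H1 and H2B do not overlap, while all other pairs of classes overlap.

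HIST1H1E had a UMI in 14 of 19 HIST1H4C-high cells and in 1 of 19 HIST1H4C-low cells. Its 34 UMIs against 1 give a fold of 40.4 whose interval reaches from 6.77 to 1641. HIST1H1C had 18 against 6 UMIs (3.56-fold, 1.35 to 10.96) and HIST1H1D, another linker histone gene, 6 against 0. Among H2A genes, HIST2H2AC had 22 against 6 UMIs (4.35-fold, 1.71 to 13.1), HIST1H2AM 18 against 5 and HIST1H2AC 10 against 0. For the H3 gene HIST1H3B there were 14 UMIs in 11 cells against 1 UMI. HIST1H2BK went the other way by number, with 10 against 20 UMIs and a fold of 0.594 (0.248 to 1.33) that counting error does not separate from 1. HIST3H2A, an H2A gene outside the main clusters, had 6 against 7. Core histone genes of a class are often near-identical, and reads may have been divided among copies, so their single rows are less certain than class sums. Whether reads were shared among H1 rows was not tested.

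Across 1608 genes, 42 were called higher in HIST1H4C-high cells (2.61%) and 126 lower (7.84%). The median gene had a fold of 0.969 (log2 -0.04), and 43.8% of genes lay above 1. Of the called genes, 39 of 42 and 111 of 126 had an interval that leaves out 1. Differences were mostly modest: 1 higher and 21 lower genes passed 2-fold. Of 29 spike-in RNAs with a mean of at least 2 UMIs per cell, none passed 1.5-fold when scaled by summed spike-in UMIs (0.771 to 1.35). They were not matched in abundance to the called genes, whose median means were 2.80 UMIs per cell (higher) and 2.83 (lower). Their folds therefore do not show how many genes counting error alone would call. Scaled by gene UMIs, every spike-in fold would be higher, and the highest would pass 1.5-fold. The reason is that HIST1H4C-high cells had fewer gene UMIs per spike-in UMI (9.06 against 10.3). With the total taken without ribosomal protein, mitochondrial, HIST and the 10 most abundant genes the counts were 71 higher and 93 lower, and scaled by spike-in UMIs they were 13 and 269. With the 19 high and 18 low cells of at least 10940 UMIs thinned to that depth they were 101 and 160. The share of higher among called genes differed between these settings, while none of these fits called a gene in the opposite direction.

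The groups also differed in measures of the whole cell. HIST1H4C-low cells had 10428 to 43392 gene UMIs (median 21104) and HIST1H4C-high cells 10940 to 34030 (median 17845), and gene UMIs per spike-in UMI were 10.3 and 9.06 when pooled. Thinned to the same 10940 UMIs, HIST1H4C-low cells showed 2395 to 3305 genes (median 3019, 18 cells) and HIST1H4C-high cells 2497 to 3129 (median 2702). In 14 low and 3 high cells this number was above the series median. Mitochondrial transcripts took a median of 6.12% and 5.22% of UMIs. The part of depth, RNA amount and detected genes in the folds below was not tested; the spike-in scale would multiply every fold by 0.877 (log2 -0.19).

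Cells at both ends had lower pooled levels of the replication machinery than the cells between. The licensing and helicase list, with the origin recognition complex, MCM, GINS and their loaders (23 genes, 8 measured), had pooled levels of 22.3 in the low, 29.1 in the lower middle, 26.9 in the upper middle and 22.2 in the high set. Its fold between the ends was 0.994 (0.905 to 1.09), while the cells between stood 1.26-fold (1.19 to 1.34) above both ends. By cell, it was above the series median in 7, 12, 14 and 5 cells of the 4 sets in that order. HIST1H4C-low cells ranged from 11.4 to 35.8 (median 20.2) and HIST1H4C-high cells from 15.9 to 36.8 (median 21.1). The cells between ranged from 10.9 to 43.5 (median 28.2) and so overlapped both ends. In pooled levels, the same order of middle over ends held for the fork and clamp list (35.8, 41.2, 38.9 and 31.7), for G1 and S entry regulators (8.67, 11.3, 11.1 and 8.71), for deoxynucleotide supply (26.2, 31.4, 29.2 and 25.5) and for replication-coupled repair and DNA methylation (14.6, 18.0, 15.1 and 12.4). Cells above the series median numbered 8, 12, 11 and 7 for the fork list and 7, 12, 11 and 8 for G1 and S entry regulators. For deoxynucleotide supply they numbered 8, 14, 9 and 7. For repair and methylation they numbered 10, 14, 9 and 5, so by cell its upper middle set was not above the low set.

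**Figure D2:**
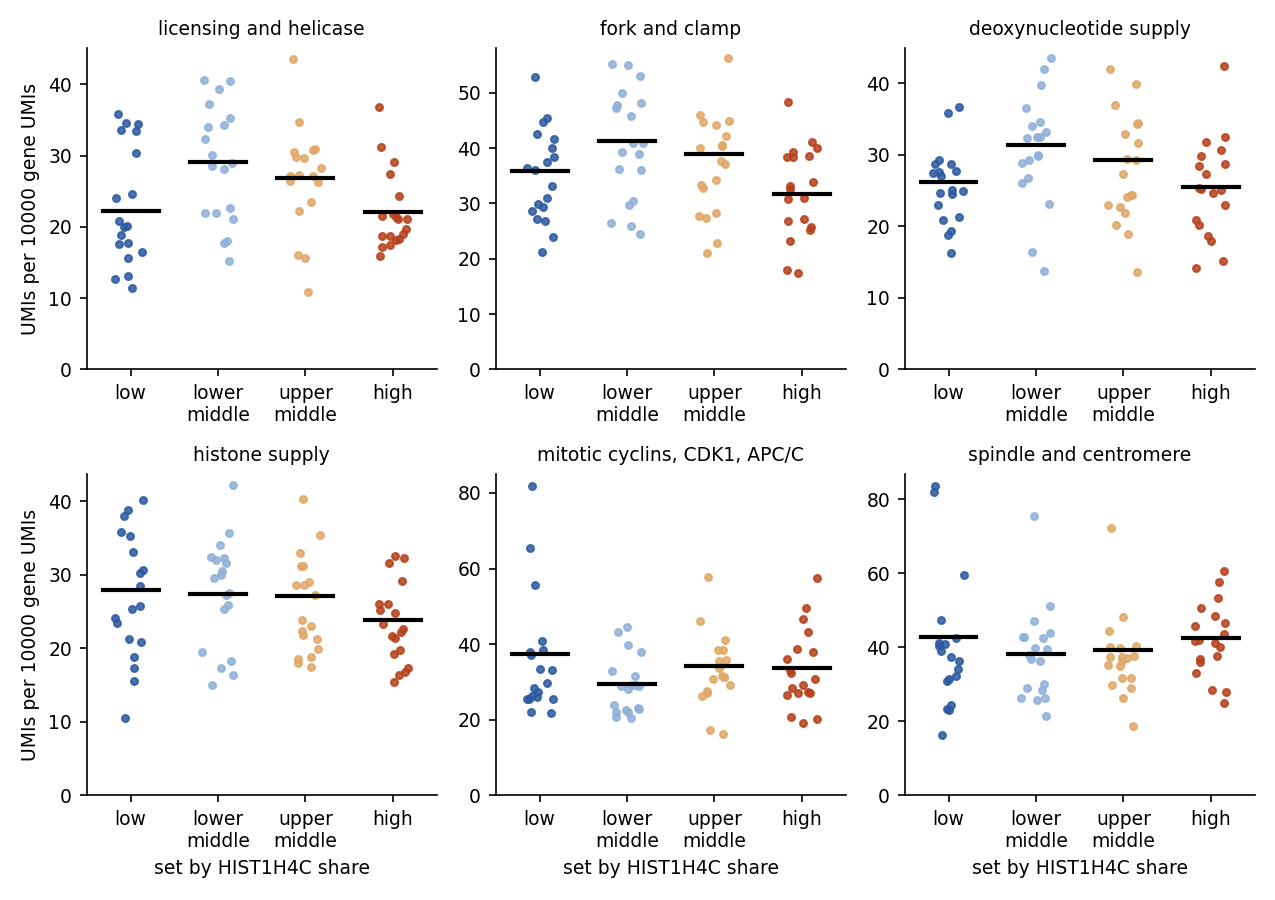
Each point is 1 cell and each bar the pooled level of a set, in UMIs per 10000 gene UMIs, for 6 gene lists of the cell cycle with sets ordered by HIST1H4C share. Licensing, fork and deoxynucleotide lists are highest in the lower middle set, and the highest low cell lies at 81.8 in the mitotic cyclin list and 83.5 in the spindle list, above all high cells.

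Single genes of DNA replication divided in both directions. With 2.61% and 7.84% of all genes called, 1 or 2 called members of a list are near the background and describe those genes, not the list. Of the 8 licensing genes measured, 1 was called lower and 0 higher, and the median fold was 0.937 beside 0.969 for all genes. MCM6, a subunit of the helicase, had levels of 0 to 2.97 (median 1.26) in HIST1H4C-low and 0 to 1.94 (median 0.407) in HIST1H4C-high cells, or 0.445-fold (0.244 to 0.780, 18 against 48 UMIs). It was above the series median in 12 low and 3 high cells, and its levels over the sets were 1.09, 1.43, 0.741 and 0.484. MCM7 of the same complex had a fold of 1.02 (0.802 to 1.301) and MCM2 0.784 (0.571 to 1.07). GMNN, which encodes the licensing inhibitor geminin, had 1.22 (0.980 to 1.53) and the GINS subunit gene GINS2 1.24 (0.916 to 1.68). None of these last 4 was called.

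At the fork, 1 of 15 genes was called higher and 2 lower (list fold 0.885, 0.820 to 0.955, median of members 0.883). KIAA0101, whose product binds PCNA, had levels of 0 to 5.46 (median 1.38) in HIST1H4C-low and 0 to 5.77 (median 2.14) in HIST1H4C-high cells, or 1.71-fold (1.24 to 2.37). The cells between had more of it than either end, at 3.11 and 3.43 against 1.54 and 2.63. PCNA itself stood at 2.17, 4.10, 2.89 and 2.12 over the sets, with a fold of 0.977 between the ends (0.716 to 1.33). The clamp loader gene RFC3 had a fold of 0.661 (0.447 to 0.968) and UNG, a uracil glycosylase that removes uracil from DNA, 0.551 (0.332 to 0.893). RPA2, of the single-strand binding complex, had 0.724 (0.588 to 0.888) and RPA3 of the same complex 1.24 (0.985 to 1.57). With the total without HIST rows RFC3 came to 0.670 and was no longer called.

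Deoxynucleotide genes had 1 of 12 called in each direction, and the pair were the subunits of ribonucleotide reductase. RRM1, the large subunit, had levels of 0 to 2.21 (median 0.948) in HIST1H4C-low and 0 to 3.66 (median 1.86) in HIST1H4C-high cells, or 1.52-fold (1.02 to 2.27). RRM2, the small subunit, had levels of 0 to 4.94 (median 1.63) and 0 to 2.94 (median 0.856), or 0.608-fold (0.411 to 0.888). Their intervals do not overlap, although RRM1 was 1.33-fold on the spike-in scale. TYMS, which makes thymidylate, was 1.48-fold (1.04 to 2.11) and highest in the lower middle set (1.38, 3.23, 2.36 and 2.04). DUT, which removes dUTP, had 1.15 (0.895 to 1.48). In the repair and methylation list 1 of 4 genes was called, the maintenance methyltransferase DNMT1 (0.646, 0.403 to 1.02). It was past 1.5-fold under 6 of 10 alternatives, from 0.237 in thinned cells to 0.812 with cells ranked per spike-in UMI, and its interval includes 1. HELLS, a chromatin remodeller of that list, had 0.681 (0.457 to 1.00). The phosphatase gene CDC25A, of the S entry list with 0 of 3 called, stood at 0.634, 1.32, 1.27 and 0.591 over the sets.

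Genes that supply and process histones did not follow the histone rows. Their 29 genes had levels of 27.9, 27.4, 27.1 and 23.8 over the sets and a fold of 0.852 (0.781 to 0.930), with 1 of 9 measured genes called higher and 1 lower. SLBP had levels of 0 to 2.77 (median 0.852) in HIST1H4C-low and 0 to 1.71 (median 0) in HIST1H4C-high cells. It was seen in 14 and 8 cells, with 48 and 16 UMIs, or 0.396-fold (0.210 to 0.709). The level was 1.27 in the upper middle set, so the lower value was found in the high set and not as a graded series. In thinned cells the fold was 0.684 and no longer past 1.5-fold. NASP, a chaperone of H1 and H3 with H4, had 0.697 (0.516 to 0.936), and the nucleosome assembly gene NAP1L4 had 1.70 (1.08 to 2.69; called under 7 of 10 alternatives), while NAP1L1 of the same family had 0.978 (0.811 to 1.18).

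Histones made outside replication, whose mRNAs carry a poly(A) tail, had summed levels close to each other (40.6, 40.7, 42.4 and 40.2 over the sets, fold 0.989, 0.922 to 1.06). H2AFZ, for the variant H2A.Z, had levels of 9.80 to 55.4 (median 22.2) in HIST1H4C-low and 13.5 to 32.7 (median 23.5) in HIST1H4C-high cells, or 0.967-fold (0.884 to 1.06). The 2 genes for histone H3.3 differed from each other, with H3F3A at 0.881 (0.738 to 1.05) and H3F3B at 1.41 (1.15 to 1.72). H1FX, a linker histone gene of the replication-independent kind, was the 1 of 6 called. Its levels were 0.474 to 3.16 (median 1.45) in HIST1H4C-low and 0 to 2.48 (median 0.856) in HIST1H4C-high cells, or 0.475-fold (0.295 to 0.746), opposite in direction to the H1 rows of the clusters. Of the high mobility group genes, which encode other chromatin proteins, 1 of 8 was called lower, HMGN5 (0.540, 0.322 to 0.881; called under 7 of 10 alternatives and 0.794 with 12 cells at each end), and the list had 1.06 (0.979 to 1.16).

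Genes of mitosis were spread more widely among HIST1H4C-low than among HIST1H4C-high cells. The list of mitotic cyclins, CDK1 and APC/C ranged from 21.7 to 81.8 (median 29.7) in low cells and from 19.3 to 57.4 (median 30.8) in high cells, and 2 low cells lay above all high cells while 3 high cells lay below all low cells. The spindle and centromere list ranged from 16.3 to 83.5 (median 37.3) and from 25.0 to 60.6 (median 41.7), and here 2 low cells lay above and 4 below all high cells. The coefficient of variation over cells was 43.98% in the low and 31.1% in the high group for the cyclin list, and 44.3% and 23.2% for the spindle list, and the difference in spread was not tested. Pooled folds were 0.900 (0.836 to 0.969) for the cyclin list, with 2 of 12 genes called lower, and 0.994 (0.929 to 1.06) for the spindle list, with 1 of 14 called higher. In the cells between, both lists were below the ends (0.889-fold, 0.844 to 0.937, and 0.906-fold, 0.863 to 0.950).

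The 2 called lower genes of the cyclin list were PTTG1 and UBE2S. PTTG1, which encodes securin, an inhibitor of separase that the anaphase-promoting complex marks for destruction, had levels of 0 to 7.58 (median 3.85) in HIST1H4C-low and 0 to 4.48 (median 1.35) in HIST1H4C-high cells, or 0.462-fold (0.339 to 0.621). UBE2S, an enzyme that extends ubiquitin chains for that complex, had levels of 0.364 to 6.71 (median 3.16) and 0 to 6.20 (median 1.40), or 0.554-fold (0.396 to 0.767). Both were above the series median in more low than high cells, 13 against 6 for PTTG1 and 14 against 8 for UBE2S, and both stood out in the low set alone, with 2.02, 2.29 and 1.69 for PTTG1 and 1.52, 1.57 and 1.51 for UBE2S in the other sets. Other genes of mitosis were not called: CDK1 had a fold of 0.953 (0.748 to 1.21), UBE2C 0.973 (0.770 to 1.23), TOP2A 0.951 (0.736 to 1.23) and CKS2 1.21 (0.960 to 1.53). The kinesin gene KIF22 had 1.64 (1.03 to 2.63), and 1.07 when cells were ranked by HIST1H4C per spike-in UMI.

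Outside the cell cycle, MALAT1, an abundant nuclear long non-coding RNA, had the narrowest interval among the higher genes. Its levels were 1.89 to 32.7 (median 10.1) in HIST1H4C-low and 0.718 to 64.9 (median 22.7) in HIST1H4C-high cells, or 1.86-fold (1.66 to 2.08). The groups overlapped, but the sets were in order, at 11.5, 13.9, 16.7 and 21.4. All 10 alternative settings kept it past 1.5-fold (1.56 to 2.17). The list of long non-coding and nuclear RNAs had a summed fold of 1.27 (1.19 to 1.36), and 1.06 (0.977 to 1.14) over its 12 genes other than MALAT1. None of the other 7 measured genes was called, and SNHG16, a snoRNA host gene, had 1.40 (1.14 to 1.72). XIST, the non-coding RNA of X inactivation, which was not in that list, had a fold of 0.552 (0.483 to 0.630), and it was 0.914 when cells were ranked by HIST1H4C per spike-in UMI.

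Other genes called higher belong to various processes. C12orf45 had 2.02-fold (1.36 to 3.01) and TIMM9, a chaperone of the mitochondrial intermembrane space, 1.89-fold (1.30 to 2.79), with 16 high and 9 low cells above the series median for TIMM9. ATP5H, a subunit of ATP synthase, had levels of 1.21 to 8.51 (median 3.82) in HIST1H4C-low and 2.25 to 11.6 (median 6.20) in HIST1H4C-high cells, or 1.55-fold (1.27 to 1.88). The small Cajal body RNA SCARNA22 had 1.99-fold (1.36 to 2.93), but 1.06 when cells were ranked per spike-in UMI. The arginine methyltransferase gene PRMT1 had 1.69 (1.204 to 2.37), the splicing factor gene BUD31 1.72 (1.22 to 2.43), the lysosomal prosaposin gene PSAP 1.81 (1.21 to 2.74) and the mitochondrial ribosomal protein gene MRPL52 1.58 (1.19 to 2.11). C19orf10 (1.74), C6orf48 (1.80), and UFD1L (1.71) complete the set with VIM and PMAIP1. VIM, for the filament protein vimentin, had 1.62 (1.16 to 2.28), and 0.928 when cells were ranked per spike-in UMI. PMAIP1, for the cell death protein Noxa, had 1.80 (1.18 to 2.76) and rests on 1 cell, which held 33.9% of its UMIs in HIST1H4C-high cells; with the cell of highest level left out of each group the fold was 1.31. Of these 15 genes, 5 were past 1.5-fold under all 10 alternatives.

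**Figure D3:**
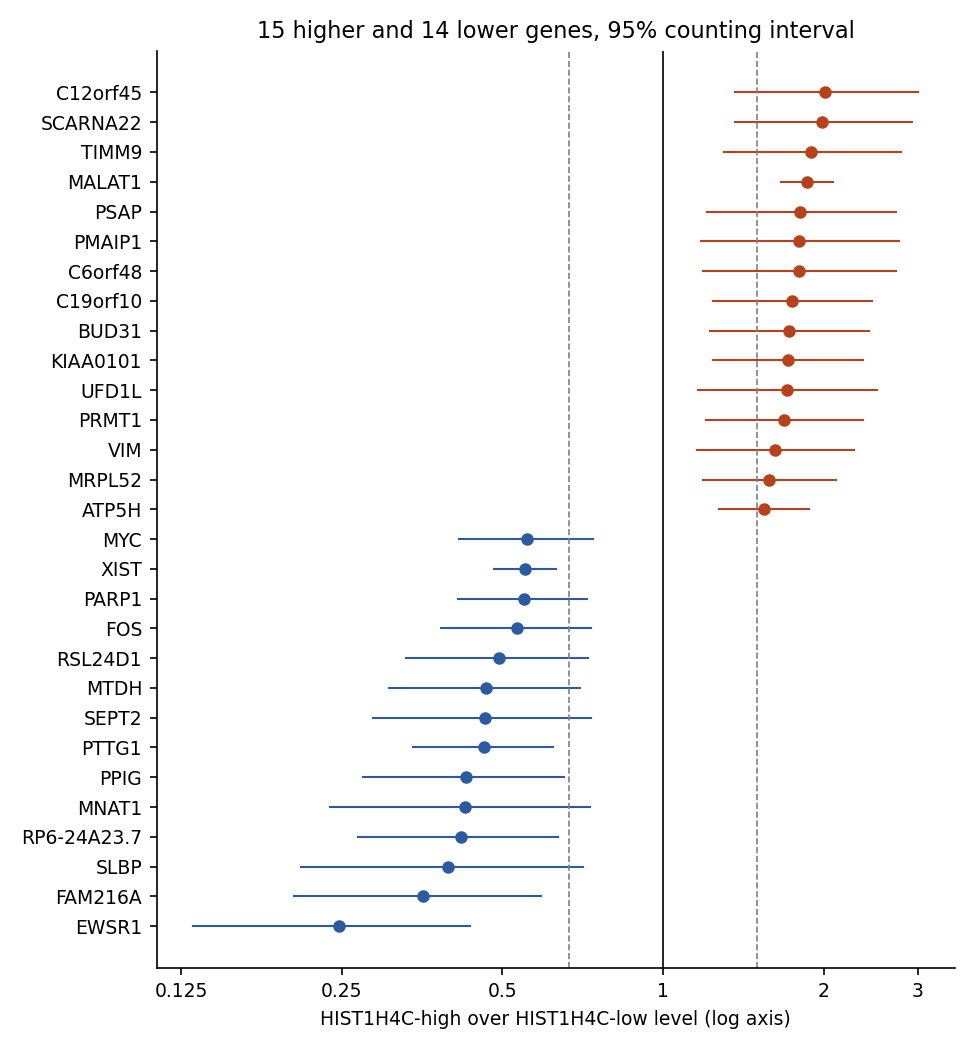
Points are folds of HIST1H4C-high over HIST1H4C-low cells on a log axis for 15 higher and 14 lower genes named by the distance of their intervals from 1, with 95% counting intervals as lines and 1.5-fold either way dashed. EWSR1 is lowest at 0.247, MALAT1 has the narrowest interval among the higher genes, and C12orf45 is highest at 2.02.

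Lower genes differed by larger folds. EWSR1, an RNA-binding protein gene, had levels of 0 to 5.04 (median 1.45) in HIST1H4C-low and 0 to 1.40 (median 0) in HIST1H4C-high cells, or 0.247-fold (0.132 to 0.435), and the sets were in order at 1.63, 1.23, 0.880 and 0.403. It was above the series median in 13 low and 4 high cells. PARP1, the poly(ADP-ribose) polymerase of DNA damage signalling, had levels of 0 to 8.67 (median 2.84) and 0.560 to 4.73 (median 1.69), or 0.548-fold (0.413 to 0.721), also in order over the sets (3.83, 3.43, 2.82 and 2.10). In thinned cells PARP1 had 0.692 and was not called. FAM216A had 0.354 (0.204 to 0.591). MNAT1, a subunit of the CDK-activating kinase, had 0.426 (0.238 to 0.731), and PPIG, a nuclear cyclophilin gene, 0.428 (0.274 to 0.652). Further called genes were RP6-24A23.7 (0.418), SEPT2 of the septin cytoskeleton (0.465), MTDH (0.467) and RSL24D1, a ribosome assembly factor gene (0.493). Of the 14 lower genes plotted, 9 passed 1.5-fold under all 10 alternatives and the others under at least 8.

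The cells between entered no fold and did not choose the called genes. Within them, the upper middle set was above the lower middle in 23 of 42 higher genes (54.8%, against 45.9% of all genes) and below it in 73 of 126 lower genes (57.9%, against 54.1%). These shares lie near those of all genes and are no result about the called genes.

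The list of immediate early genes and MYC, which also holds the differentiation repressors ID2, ID3 and HES1, had a lower sum in HIST1H4C-high cells. It stood at 22.7, 16.2, 20.0 and 16.7 over the sets (0.737-fold, 0.665 to 0.815), with 2 of 7 genes called. MYC, for the growth-promoting transcription factor, had levels of 0 to 9.40 (median 1.93) in HIST1H4C-low and 0 to 4.89 (median 1.37) in HIST1H4C-high cells, or 0.556-fold (0.415 to 0.738). FOS had levels of 0 to 11.6 (median 1.12) and 0 to 6.72 (median 0.474), or 0.534-fold (0.385 to 0.733), and 1 cell held 37.9% of its UMIs in the high group. With cells ranked per spike-in UMI FOS had 0.753 and was not called. ID2, a repressor of differentiation factors, had 0.732 (0.598 to 0.895). It held 261 of the 1001 UMIs of the list in low cells and 161 of 621 in high cells. ID3 had 1.19 (0.876 to 1.61) and HES1 0.937 (0.683 to 1.28). The sum without these repressors was not taken, so the list fold is not one of immediate early genes alone. Cells within a group varied far more than the groups differed, with coefficients of variation of 67.4% and 70.7% for the summed list, and 3 low cells lay above all high cells.

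Chaperones had a lower summed level in HIST1H4C-high cells, while 1 of 23 measured members was called. The list had levels of 69.2 to 166 (median 114) in HIST1H4C-low and 64.4 to 138 (median 99.6) in HIST1H4C-high cells, or 0.823-fold (0.789 to 0.858), and was above the series median in 14, 12, 8 and 4 cells of the sets. Of the 23 genes 20 lay below 1, against 56.2% of all genes, with a median fold of 0.821, and the called gene was HSPA4 (0.519, 0.295 to 0.884). The mitochondrial chaperonin gene HSPD1 had levels of 6.95 to 24.4 (median 13.6) and 0 to 17.5 (median 12.3), or 0.700-fold (0.616 to 0.795). HSP90AA1 had 0.755 (0.658 to 0.866), HSP90AB1 0.770 (0.664 to 0.891) and HSPA8 0.896 (0.773 to 1.04). Splicing regulators had a summed fold of 0.908 (0.874 to 0.944), with SRSF1 called (0.571, 0.377 to 0.851; 0.817 with cells ranked per spike-in UMI), and nucleolar proteins 0.921 (0.879 to 0.964), with none of 14 called. The ATF4 and serine synthesis list had 0.859 (0.769 to 0.960), with the amino acid transporter gene SLC3A2 called (0.626, 0.385 to 0.999; 0.888 in thinned cells, and called under 7 of 10 alternatives) and ATF4 at 0.719 (0.563 to 0.914).

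**Figure D4:**
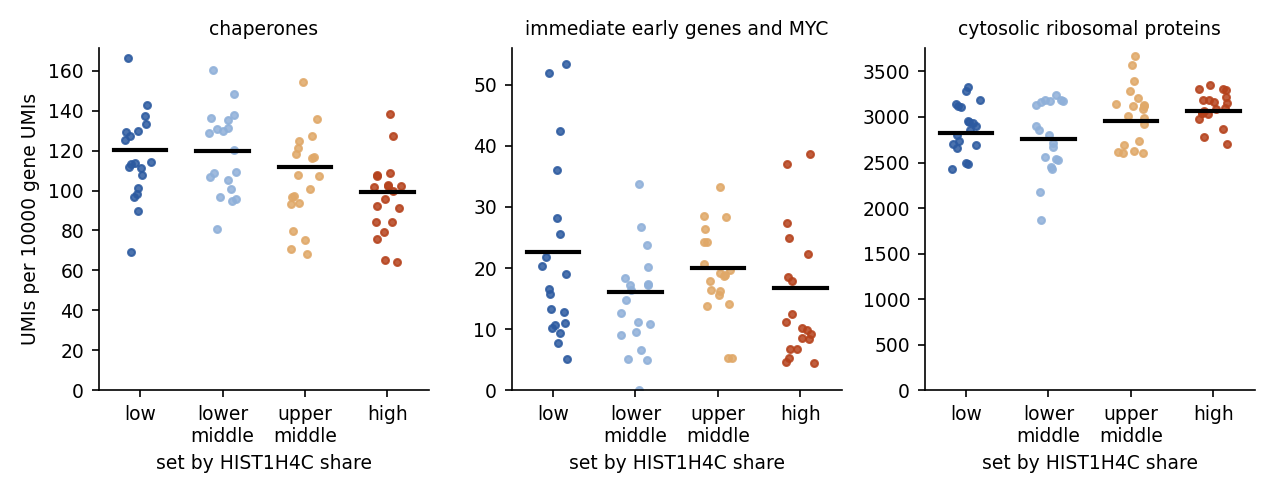
Each point is 1 cell and each bar the pooled level of a set, in UMIs per 10000 gene UMIs, for chaperones, immediate early genes with MYC, and cytosolic ribosomal proteins. The list with MYC also holds ID2, ID3 and HES1. Chaperones are at 120 in the low and 99.04 in the high set, and ribosomal proteins are 2828 and 3070 there, with wide overlap between cells.

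Ribosomal protein genes took a larger share in HIST1H4C-high cells, with none of 78 called. They made up 24.3% to 33.3% of UMIs (median 29.03%) in HIST1H4C-low and 27.1% to 33.5% (median 30.9%) in HIST1H4C-high cells, and were above the series median in 6 and 15 cells. The list fold was 1.09 (1.08 to 1.09), and 69 of 78 genes lay above 1 (median 1.08), against 43.8% of all genes. Scaled by spike-in UMIs, however, the list was below 1, at 0.952. RPLP1 had 1.15 (1.10 to 1.21) and RPL31 1.16 (1.10 to 1.22). Nuclear genes of oxidative phosphorylation had 1.07 (1.04 to 1.09) with 31 of 39 above 1, against the same 43.8%, and none called. The mRNAs of the mitochondrial genome had 0.967 (0.944 to 0.989). Glycolysis had 1.04 (1.00 to 1.09), actins and tubulins 1.05 (1.01 to 1.09) and translation factors 1.02 (0.992 to 1.05), the last with EIF2S1 called higher (1.64, 1.03 to 2.63). The actin and tubulin list also holds VIM, which is neither and was its 1 called gene of 14 measured (1.62). Ribosomal protein, actin and tubulin genes have near-identical copies, so single members are uncertain.

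Across all lists, 22 measured members were called, of which 6 (MCM6, PTTG1, UBE2S, HSPA4, MYC and MALAT1) were past 1.5-fold under all 10 alternatives. The other 16 lost the call under 1 to 4 of them. Among all 1608 genes 2.61% were called higher and 7.84% lower. No share over all measured list members was taken, so the 22 describe single genes and are no result about the lists.

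**Figure D5:**
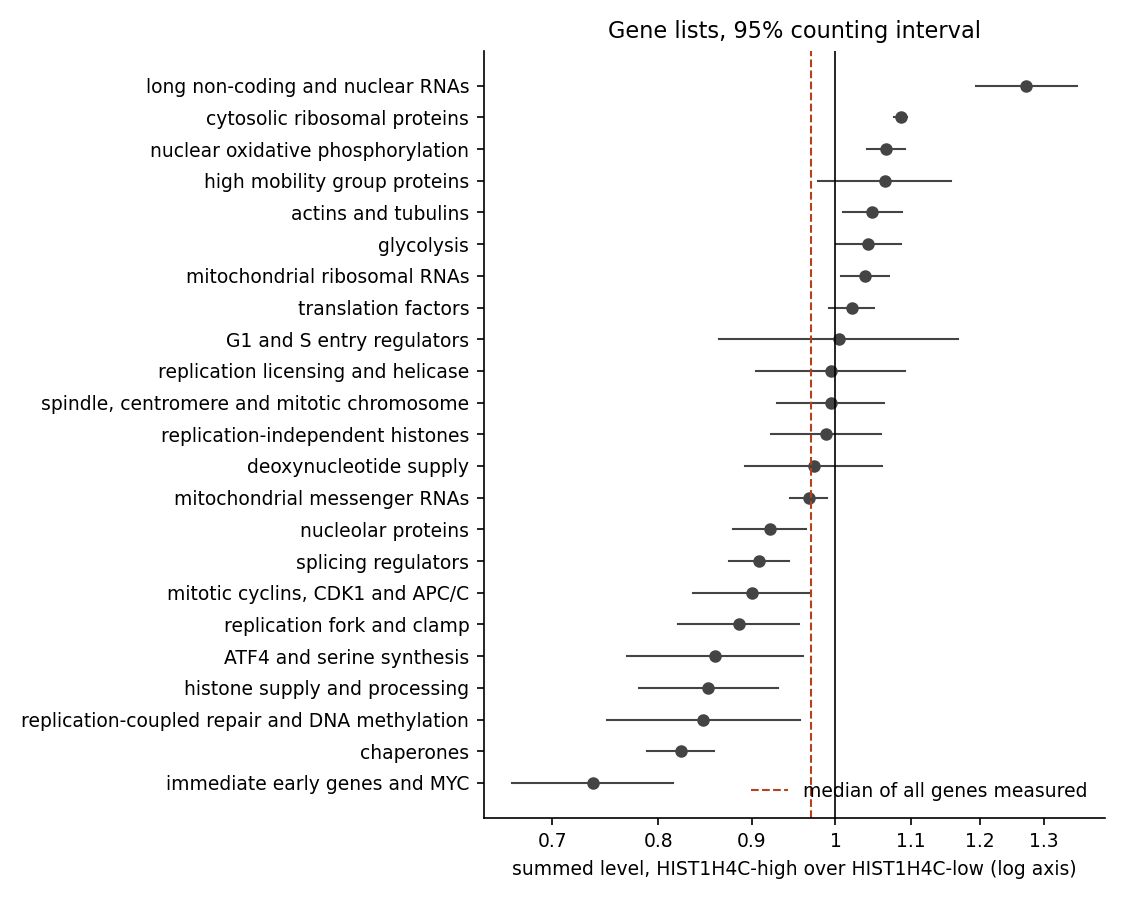
Points are the summed levels of gene lists in HIST1H4C-high over HIST1H4C-low cells on a log axis, with 95% counting intervals as lines and the median of all measured genes (0.969) dashed. Immediate early genes with MYC, a list that also holds ID2, ID3 and HES1 (0.737), and chaperones (0.823) are lowest. Long non-coding and nuclear RNAs are highest (1.27, or 1.06 without MALAT1). The sparse lists of p53 targets and tissue markers are not drawn.

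Markers were used to check the label and for other cell types. Of 12 kidney epithelial markers 4 had a row, and their summed level was 0 to 6.53 (median 1.26) in HIST1H4C-low and 0 to 3.66 (median 0.387) in HIST1H4C-high cells, or 0.445-fold (0.266 to 0.722). All but 1 of their UMIs in these groups came from the keratins KRT18 (46 and 19 UMIs) and KRT8 (18 and 4), which were chosen after their values were seen, as was EPCAM with the other 1 in a high cell, while KRT19 was at 0 UMIs in both groups. Of 14 neuronal markers 8 had a row, with MAP2 at 0. Their sum was 0.631 to 18.4 (median 2.13) in low and 0 to 10.05 (median 2.94) in high cells (0.864-fold, 0.679 to 1.10). By cell the direction was the other way, with 6 low and 10 high cells above the series median. For the marker NEFM, 1 cell held 60.9% of the UMIs in low cells. Of 12 blood and immune markers 3 had a row, with 13 UMIs in low and 2 in high cells (0 to 1.26 and 0 to 0.563 per cell, 0.183-fold, 0.0200 to 0.807). Of 10 fibroblast and muscle markers 4 had one, with 6 and 1 UMIs (0 to 0.959 and 0 to 0.676 per cell, 0.198-fold, 0.00430 to 1.63). The part of these markers in the folds above was not tested. The p53 target list of 14 sparse genes had 0.718 (0.504 to 1.01).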

How the data were processed

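Single-cell RNA of 76 HEK293 cells was measured by 5' selective sequencing, with cDNA amplified by 18 cycles of PCR and 20000 molecules of spike-in RNA stated per cell. The authors deposited raw UMI counts, as whole numbers for each gene in each cell, in a single table. Tools listed in the submitters' processing notes are STAR 2.4.0a and cutadapt 1.2.1, beside build hg19, without a role for any. How UMIs were counted, on which annotation and with which filter for cells was not given in the sources used. All 76 columns were matched to cells by name, and 0 belonged to no sample.

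From these counts, a row that repeats column numbers was left out and 80 spike-in rows were kept apart from 17513 gene rows, of which 39 were HIST rows. Cells were ranked by HIST1H4C per gene UMI, with 0 ties at the borders. Folds compared pooled levels with exact conditional (Clopper-Pearson) 95% intervals, in Python 3.11.15 with SciPy 1.17.1, and the calculation was tested on simulated data. Depth was 7305 to 43392 gene UMIs per cell, so genes near 2 UMIs per cell are limited by counting error. The fold's denominator is the same total that ranks the cells, which ranking and scaling by spike-in UMIs varied. Other alternatives changed the total, depth, group size, expression minimum and fold, or left out single cells.

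Genes were named by rule: the 15 higher and 15 lower genes whose interval bound nearest 1 lay farthest from 1, list members past 1.5-fold (up to 6 of highest mean) and, for every list, its 2 to 4 members of highest mean, of which the text gives part; 1 of the 15 lower genes is not reported here. The members, lists and rule were chosen with earlier results of these data known, so no list is independent evidence. List genes without a row are not analysed here.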

Additional observations from a re-analysis of the deposited data

How the results depend on the processing

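Each fold of high over low cells for a full list or a named gene outside the HIST rows was recomputed under 10 alternatives. The counts of called genes were also taken under 5 more. Folds of HIST rows, and of the cells between over both ends, were not recomputed. Called genes numbered 42 higher and 126 lower as reported. The higher count was 71 with the total without abundant genes, 13 on the spike-in scale, 101 in thinned cells and 94 with the 12 cells at each end, and the lower count was 269 on the spike-in scale and 78 when cells were ranked per spike-in UMI. With a mean of at least 1 UMI the counts were 148 and 407 of 2808 genes (5.27% and 14.5%). With at least 5 UMIs they were 4 and 15 of 645 (0.620% and 2.33%). With no minimum beyond 1 UMI in each group they were 1758 and 3049 of 10246 (17.2% and 29.8%). The share called was thus smaller where genes had more counts. Among the 1608 genes, the counts at a ratio of 5 to 4 were 189 and 347, and at 2-fold 1 and 21. Ranking per spike-in UMI kept 14 of 19 cells in each group and 24 of the 42 higher and 49 of the 126 lower genes, and turned VIM to 0.928. On the spike-in scale the licensing list came to 0.872, the fork list to 0.776, mitotic cyclins to 0.789, the spindle list to 0.871 and ribosomal proteins to 0.952. Ribosomal proteins were otherwise above 1: 1.07 as a mean over cells, 1.10 without HIST rows in the total, 1.15 without abundant genes in the total, 1.10 with 25 cells at each end and 1.04 when ranked per spike-in UMI. The spindle list was 0.916 in thinned cells and mitotic cyclins 0.834 with 12 cells at each end. The causes were not tested. No paired analysis was possible because the labels name a single group without replicate numbers shared across groups. Low counts limit most genes, and folds under about 1.5 in genes near 2 UMIs per cell are not separable from counting error at this depth.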
